A study of Homo sapiens with 12 samples.

Results

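Decidualization is the change by which fibroblast-like stromal cells of the endometrium become the secretory cells that surround an implanting embryo. Progesterone and cyclic AMP drive it in culture. Cells that have passed through it are recognised by 2 secreted products, prolactin and an insulin-like growth factor binding protein, and a set of transcription factors is needed for it. Described here are 10 genes known for this process, out of 58735 genes in the count table: the secreted proteins PRL, IGFBP1, WNT4 and BMP2, and the transcription factors FOXO1, HAND2, HOXA10, HOXA11, CEBPB and NR2F2. They were listed by name from what is known of decidualization, with earlier results of these data at hand, and each symbol was matched to its Ensembl gene ID.

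RNA was sequenced from 2 human endometrial cell lines, with 3 libraries in each of 4 groups. T-HESC (THESC in the labels), the main line here, is a telomerase-immortalised line of stromal, fibroblast-like origin, and HEC-1A (HEC1A) is a line of epithelial-like cells from an endometrial adenocarcinoma. Each line received 15 µM AG-205 or its solvent DMSO for 32 h. AG-205 is a small molecule used as a ligand of the progesterone receptor membrane component PGRMC1. The study concluded that it lacks specificity for PGRMC1 and that how it acts is still unclear. All cells, controls included, were in DMEM/F12 with serum and without phenol red, and the methods of the study name no progesterone, cyclic AMP or other decidual stimulus for them. Each line is a single line, so differences between the lines are differences between these lines and not between cell types in general.

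Total counts per library ranged from 7168542 to 15178276. The 9 stromal markers summed to between 19305 and 28469 CPM (counts scaled to library size, with TMM over the 12 libraries) in the T-HESC DMSO libraries and to between 9.68 and 15.4 CPM in the HEC-1A ones. The 9 epithelial markers summed to between 1534 and 1694 CPM in HEC-1A and to between 238 and 344 CPM in T-HESC, where the keratins KRT18, KRT19 and KRT8 held most of the sum and EPCAM stayed at or under 0.496 CPM. In T-HESC 1 library stood apart: AG-205 replicate 1 scored 77.7 on the first principal component (53.8% of the variance) against -29.4 to 1.83 for the other 5, and values without it are given below for the members and for the genes of the wider list that are named with a difference in T-HESC. In bulk RNA, fewer cells of a type and less RNA per cell cannot be told apart.

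The order of the members in unstimulated stromal cells was taken first, on a scale corrected for gene length (RPKM, the CPM divided by the exon length in kilobases). In the T-HESC DMSO libraries NR2F2, an orphan nuclear receptor of the stroma also called COUP-TFII, was the highest at 105 ± 6.96 RPKM (mean ± SD, n = 3). CEBPB, a leucine zipper factor that cyclic AMP activates in stromal cells, followed at 58.9 ± 18.2 RPKM. The homeobox factors HOXA11 and HOXA10, which set uterine identity, had 40.6 ± 13.3 and 25.6 ± 6.94 RPKM. NR2F2 lay above 98.5% and HOXA10 above 92.8% of the 25874 genes with a count in that group. HAND2, a basic helix-loop-helix factor that progesterone raises in the stroma, came next at 13.8 ± 0.336 RPKM. BMP2 and FOXO1 were lower again, at 1.53 ± 0.672 and 1.51 ± 0.334 RPKM. Neighbours in this order had overlapping libraries for CEBPB and HOXA11, for HOXA11 and HOXA10 and for BMP2 and FOXO1, while the other steps from NR2F2 down to FOXO1 did not overlap.

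The markers by which decidual cells are known were at or near 0 in every group. PRL, which encodes prolactin (ENSG00000172179, chromosome 6, positions 22287244 to 22302826 in GRCh38, minus strand), had 0 counts in all 12 libraries. A floor of 3 counts corresponds to between 0.225 and 0.299 CPM in the T-HESC libraries, so PRL below that level was not detectable at this depth. IGFBP1, the binding protein of insulin-like growth factors that decidual cells secrete (ENSG00000146678, chromosome 7, 45888360 to 45893660, plus strand), had 3, 0 and 3 counts in the T-HESC DMSO libraries and 0, 1 and 0 with AG-205. In HEC-1A it had 0, 0 and 2 counts with DMSO and 1 in each AG-205 library. WNT4, a secreted ligand that acts downstream of BMP2 in decidual cells (ENSG00000162552, chromosome 1, 22117313 to 22143969, minus strand), had 2, 2 and 1 counts in T-HESC with DMSO and 0, 1 and 2 with AG-205. Its highest count was in HEC-1A, with 10, 3 and 3 counts under AG-205 against 3, 1 and 1 under DMSO, or 0.682, 0.221 and 0.359 CPM against 0.246, 0.0796 and 0.0896 CPM. Those HEC-1A groups overlapped. None of these 3 genes passed the filter on low counts in any comparison, and no fold is given for them.

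**Figure D1:**
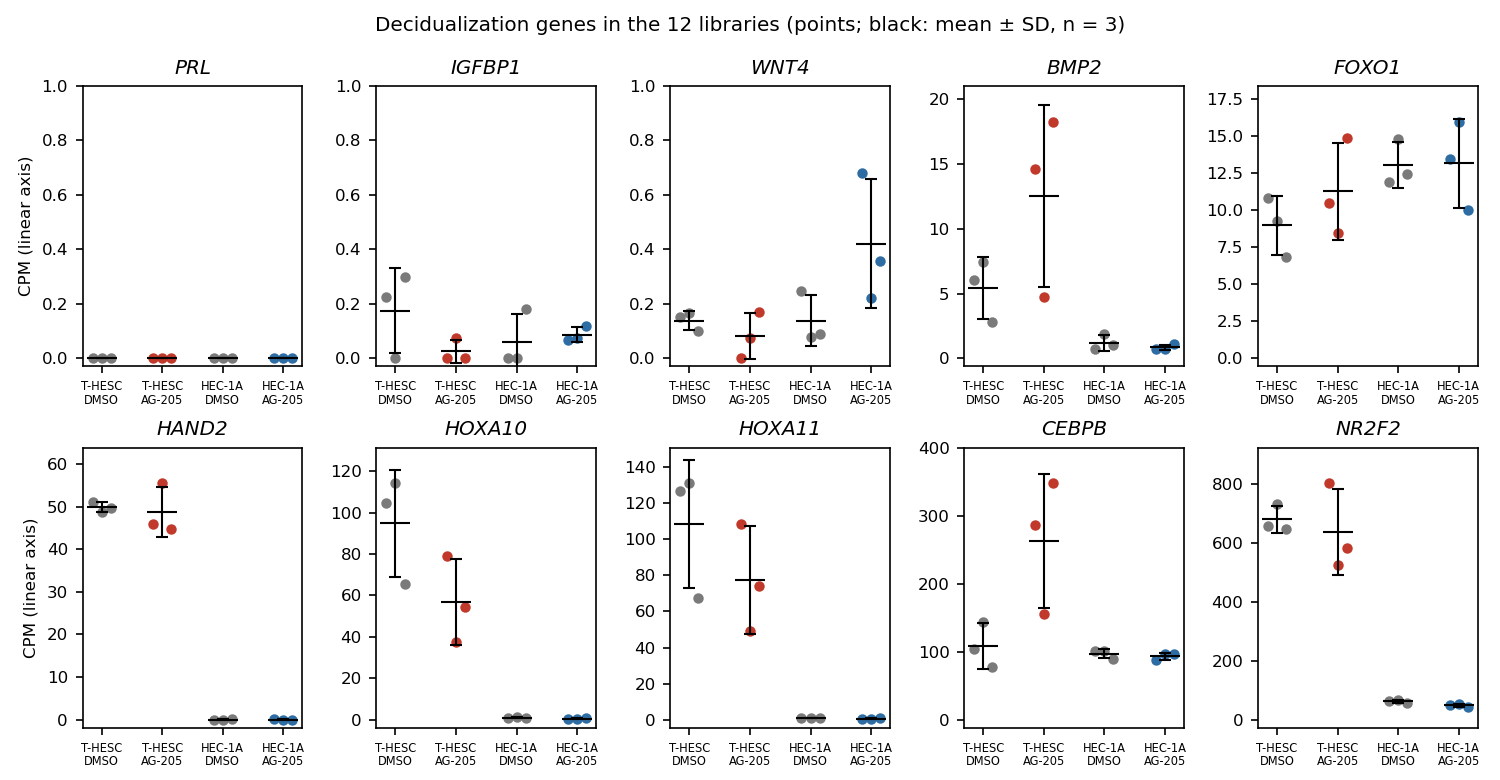
CPM of the 10 members in each of the 12 libraries on linear axes that start near 0, a panel per gene and a column per group; points are libraries and the black bars the mean and SD of 3 libraries. PRL, IGFBP1 and WNT4 lie on or near 0 throughout, HAND2, HOXA10, HOXA11 and NR2F2 are high in the 6 T-HESC libraries, and CEBPB is the member whose T-HESC AG-205 libraries all lie above the DMSO ones.

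The T-HESC and HEC-1A DMSO libraries were then compared to see which members set the stromal line apart before any treatment. HAND2, HOXA10, HOXA11, NR2F2 and BMP2 were higher in T-HESC, whereas CEBPB and FOXO1, although well expressed, did not pass the test in either direction. In edgeR's quasi-likelihood test over 14789 genes, 5 of the 10 members were called higher (adjusted p under 0.05 and log2 fold change above 1) and 0 lower, 7 having passed the filter, against 22.3% of all genes called higher and 22.3% called lower. HAND2 and HOXA11 passed the filter only through their T-HESC counts and so had to differ. BMP2, with 9, 24 and 11 counts in the HEC-1A libraries, also needed its T-HESC libraries to pass. Its call is therefore not taken as support. The 5 calls held in all 12 alternative analyses, which for HAND2, HOXA11 and BMP2 is no further support.

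HAND2 was almost undetected in HEC-1A. Its counts were 680, 589 and 498 in T-HESC against 0, 0 and 1 in HEC-1A, or 51.1, 48.7 and 49.6 CPM against at most 0.0896 CPM. The summed counts, 1767 against 1, gave a ratio of 1791 after scaling, with an exact 95% interval of 321 to 70785 that covers counting error only. HAND2 lies on chromosome 4 (ENSG00000164107, 173524969 to 173530229, minus strand) beside a divergent antisense RNA, HAND2-AS1, whose exons overlap 24.1% of its exon length. HAND2-AS1 had 475, 437 and 282 counts in T-HESC with DMSO and 0 in HEC-1A, so it was at least 403-fold higher, with the floor of 3 counts set over the group. Since the strand setting of the counting is not stated, reads in the shared exons may belong to either gene. The 250 bases before the HAND2 start (chr4:173530230-173530479, minus strand, RefSeq, GRCh38.p14) are shown because HAND2 had the largest difference between the lines among the members. Capitals mark CCAAT on either strand, at -147 and, as ATTGG, at -55, and the cyclic AMP response half-site TGACG at -37, positions counting back from the start.
HAND2: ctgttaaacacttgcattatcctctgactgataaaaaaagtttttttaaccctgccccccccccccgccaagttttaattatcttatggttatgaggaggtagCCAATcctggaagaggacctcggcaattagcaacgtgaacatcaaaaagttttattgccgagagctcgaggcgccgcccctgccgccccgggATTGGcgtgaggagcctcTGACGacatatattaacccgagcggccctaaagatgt

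The HOXA pair behaved alike between the lines. HOXA10 (ENSG00000253293, chromosome 7, 27170605 to 27180261, minus strand) had 104.5, 114 and 65.6 CPM in T-HESC and 1.07, 1.11 and 0.986 CPM in HEC-1A, an 88.1-fold difference (log2 6.46, SE 0.278, edgeR adjusted p = 1.33e-07). HOXA11 (ENSG00000005073, 27181157 to 27185232, minus strand), its neighbour in the same cluster, had 127, 131 and 67.4 CPM in T-HESC against 9, 10 and 8 counts per library in HEC-1A, a 141-fold difference (log2 7.14, SE 0.349, edgeR adjusted p = 2.86e-07). In both genes DMSO replicate 3 was the lowest of the T-HESC DMSO libraries. The next gene of the cluster, HOXA9, was 85.4-fold higher in T-HESC (log2 6.42, SE 0.214, edgeR adjusted p = 3.02e-08). Like HOXA11, HOXA9 did not pass the filter among the HEC-1A libraries, so neither test is taken as support for a difference. HOXA11-AS, which overlaps 27.2% of the HOXA11 exon length, stood at 17.4% to 21.1% of the HOXA11 counts in the T-HESC DMSO libraries. HOXA10-AS, which overlaps 16.4% of the HOXA10 exon length, stood at only 1.58% to 3.34% of the HOXA10 counts.

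The promoters of this pair are printed because they lie in 1 cluster and the genes followed each other over the T-HESC libraries, as shown further down. For HOXA10 (chr7:27174321-27174570) capitals mark TATAAA read on the other strand (TTTATA, at -150) and ATTGG at -54. For HOXA11 (chr7:27185233-27185482) they mark TGACG at -204 and its reverse complement CGTCA at -23. Both are on the minus strand, from RefSeq, GRCh38.p14.
HOXA10: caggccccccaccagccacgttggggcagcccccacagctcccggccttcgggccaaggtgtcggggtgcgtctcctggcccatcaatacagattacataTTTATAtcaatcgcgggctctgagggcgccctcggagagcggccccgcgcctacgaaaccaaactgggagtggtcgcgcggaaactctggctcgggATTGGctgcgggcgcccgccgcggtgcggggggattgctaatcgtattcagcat
HOXA11: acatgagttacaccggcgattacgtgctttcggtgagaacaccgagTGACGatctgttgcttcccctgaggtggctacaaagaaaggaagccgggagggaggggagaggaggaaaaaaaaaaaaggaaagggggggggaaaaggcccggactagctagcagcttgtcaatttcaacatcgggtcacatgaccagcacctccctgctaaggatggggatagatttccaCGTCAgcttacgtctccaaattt

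NR2F2 and BMP2 were present in both lines at different levels. NR2F2 (ENSG00000185551, chromosome 15, 96325938 to 96340263, plus strand) had 659, 732 and 649 CPM in T-HESC and 62.6, 65.8 and 57.6 CPM in HEC-1A, and was 10.9-fold higher in T-HESC (log2 3.44, SE 0.104, edgeR adjusted p = 2.05e-08). BMP2, a bone morphogenetic protein that stromal cells secrete around an implantation site (ENSG00000125845, chromosome 20, 6767686 to 6780246, plus strand), had 6.01, 7.45 and 2.79 CPM in T-HESC against 9, 24 and 11 counts per library in HEC-1A. It was 4.41-fold higher in T-HESC (log2 2.14, SE 0.450, edgeR adjusted p = 0.00241), with no overlap of the groups. Without its T-HESC libraries BMP2 would have fallen short of the filter, so this test is not taken as support.

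FOXO1 and CEBPB did not mark the stromal line. FOXO1, a forkhead factor that enters the nucleus in decidual cells and binds the PRL and IGFBP1 promoters (ENSG00000150907, chromosome 13, 40555667 to 40666641, minus strand), had 10.8, 9.27 and 6.88 CPM in T-HESC and 11.9, 14.8 and 12.5 CPM in HEC-1A. The T-HESC libraries were all lower, by a fold change on the log2 scale of -0.54 (SE 0.194, edgeR adjusted p = 0.0325), which is within the fold limit. CEBPB (ENSG00000172216, chromosome 20, 50190830 to 50192668, plus strand) had 104, 144 and 77.4 CPM in T-HESC and 101, 101 and 89.3 CPM in HEC-1A, and the groups overlapped (log2 0.15, SE 0.199, 95% interval -0.31 to 0.60, edgeR adjusted p = 0.523).

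A wider list of 74 genes that matched the table, drawn from receptors, other transcription factors, BMP, activin and WNT signalling, prostaglandin and cAMP signalling, the IGF axis and decidual products, gave the surroundings of the members. Of 59 that passed the filter, 33 were called higher in T-HESC, 4 lower and 22 neither, against the 22.3% of all genes in each direction given above. Of the 33, 16 did not pass the filter among the HEC-1A libraries, PGR, TWIST1, IGF2, IGFBP5, LUM and TXNIP among them. Genes that passed only through T-HESC had to be called higher, so the counts describe the list and nothing is read from them. The decidual products had 10 of 11 higher and 1 lower, the IGF axis 5 of 6 higher, and prostaglandin and cAMP signalling 1 of 6 higher. Among the highest fitted differences were PGR, the nuclear progesterone receptor, with 655 counts against 0 and so at least 221-fold higher, and TWIST1, a mesenchymal factor, at least 385-fold higher. IGFBP5 and TXNIP had a single count over the 3 HEC-1A libraries and ratios of 3214 (exact 95% interval 576 to 126997) and 9224 (1655 to 364376). DKK1, a secreted WNT inhibitor, and IGFBP4 had log2 fold changes of 11.49 and 11.03 (SE 0.208 and 0.318). DKK1 is another of the 16 that did not pass the filter among the HEC-1A libraries, so nothing is read from its difference. The 4 genes lower in T-HESC were CLU, a secreted chaperone (log2 -2.71, SE 0.138), FKBP4, a cochaperone of the progesterone receptor (-1.87, SE 0.156), ID2 (-1.26, SE 0.104) and BMPR1B, a BMP receptor (-1.18, SE 0.270). The median log2 fold change was 1.17 over the 59 genes and -0.02 over all genes tested. The 16 genes above are among the 59, so nothing is read from that median either.

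**Figure D2:**
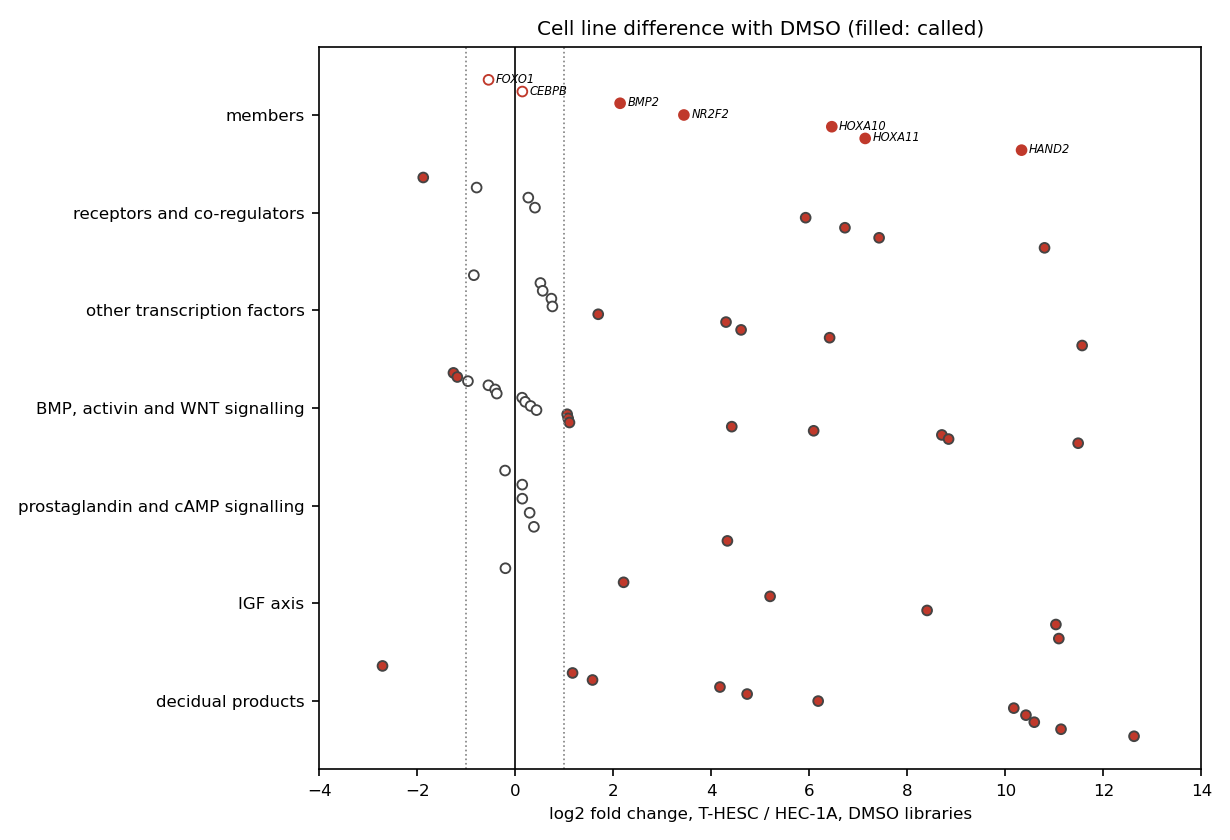
Fitted log2 fold change of T-HESC over HEC-1A in the DMSO libraries for the 7 members that passed the filter (top row) and for the wider list by group, a point per gene, filled where called; dotted lines mark the fold limit. The members spread from FOXO1 at -0.54 to HAND2 at 10.33, and fitted values of genes with no or few counts in HEC-1A depend on the count added by the model.

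Whether AG-205 changed these genes in stromal cells was the main comparison. No member passed the test in T-HESC: 0 of the 7 that passed the filter were called by edgeR, against 0.0800% of the 13753 genes tested, and DESeq2 also called 0. At an unadjusted p under 0.05 edgeR gave 1 of the 7, CEBPB, against 5.38% of all genes tested. DESeq2 gave 3, but its own share over all genes was not taken, so nothing is read from that count. The number of genes called over the whole table moved with the analysis, from 11 in edgeR to 114 of 15665 in DESeq2 (0.728%), 333 with library quality weights in limma (2.42%), 181 of 29303 with no filter (0.618%) and 160 of 16132 in a fit of all 12 libraries (0.992%). Leaving out AG-205 replicate 1 gave 72 such genes and leaving out replicate 3 gave 5, while 0 were left once AG-205 replicate 2 or any one DMSO library was dropped. CEBPB was also the only member whose AG-205 and DMSO libraries did not overlap, which 11.0% of all genes tested did. Between T-HESC libraries the biological coefficient of variation was 33.6%, against 10.1% in HEC-1A, and the intervals below are correspondingly wide.

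CEBPB had the largest difference among the members in edgeR. It stood at 287, 156 and 349 CPM with AG-205 and at 104, 144 and 77.4 CPM with DMSO. All 3 AG-205 values exceeded all 3 DMSO values, although AG-205 replicate 2 was close to DMSO replicate 2. The fitted difference was 2.41-fold (log2 1.27, SE 0.369, 95% interval 0.42 to 2.12), with an unadjusted p of 0.00895 and an edgeR adjusted p = 0.526. Without AG-205 replicate 1 it was 1.19 on the log2 scale (SE 0.372, edgeR adjusted p = 0.333). It was called when no genes were filtered (edgeR adjusted p = 0.0256) and in a fit of all 12 libraries (0.0445), and with library quality weights in limma it was 0.59 on the log2 scale (adjusted p = 0.296), so the call depended on the analysis. With those weights HOXA10 and HOXA11, described below, differed more. An antisense RNA, CEBPB-AS1, overlaps 12.6% of the CEBPB exon length, and with the strand setting not stated its reads cannot be told from those of CEBPB there. The 250 bases before its start (chr20:50190580-50190829, plus strand, RefSeq, GRCh38.p14) are shown because CEBPB had the largest difference with AG-205 among the members in edgeR. Capitals mark CCAAT at -245, TGACG at -57 and TATAAA at -29.
CEBPB: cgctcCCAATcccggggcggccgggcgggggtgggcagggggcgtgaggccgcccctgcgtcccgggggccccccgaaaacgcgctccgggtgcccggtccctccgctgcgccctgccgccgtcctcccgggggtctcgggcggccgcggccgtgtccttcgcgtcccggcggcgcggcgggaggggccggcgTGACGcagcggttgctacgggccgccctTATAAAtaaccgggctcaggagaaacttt

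Of the 35114 RefSeq promoters of the same length, 10.7% hold TATAAA on either strand, 32.0% CCAAT and 21.2% TGACG. Promoters at the annotated start were at hand for 7 members, PRL, WNT4, FOXO1, HAND2, HOXA10, HOXA11 and CEBPB. TATAAA was found in 3 of them (PRL, HOXA10 and CEBPB), CCAAT in 5 and TGACG in 4 (PRL, HAND2, HOXA11 and CEBPB). None of the 7 held the C/EBP core TTGCNNAA (9.05% of all), the forkhead site GTAAACA (2.98%) or the sterol element core TCACNCCAC (0.883%). The PRL window, 22297037 to 22297286, lies within the span of the gene, which reaches 22302826 on the minus strand. Bases before that upstream end of PRL were not searched. Such matches and absences describe letters in these windows only.

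BMP2 and FOXO1 shared part of the CEBPB pattern over the T-HESC libraries. BMP2 had 14.6, 4.73 and 18.3 CPM with AG-205 and 6.01, 7.45 and 2.79 CPM with DMSO. AG-205 replicates 1 and 3 were above all DMSO libraries and replicate 2 was among them. The log2 fold change was 1.19 (SE 0.548, 95% interval -0.08 to 2.45, edgeR adjusted p = 0.968). Without AG-205 replicate 1 it was 1.04 (SE 0.579, adjusted p = 0.652 in edgeR), and under library quality weights -0.02. FOXO1 had 10.5, 8.49 and 14.9 CPM with AG-205 and 10.8, 9.27 and 6.88 CPM with DMSO, so that only replicate 3 was above the DMSO range. Its log2 fold change was 0.31 (SE 0.311, 95% interval -0.41 to 1.03, edgeR adjusted p = 0.993), 0.35 without AG-205 replicate 1 (adjusted p = 0.799) and -0.03 with quality weights. For all 3 genes DMSO replicate 3 was the lowest DMSO library and AG-205 replicate 3 the highest of all.

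HOXA10 and HOXA11 had lower means with AG-205, with overlapping libraries. HOXA10 had 78.8, 37.7 and 54.2 CPM with AG-205 against 104.5, 114 and 65.6 CPM with DMSO. Its log2 fold change was -0.75 (SE 0.343, 95% interval -1.54 to 0.04, edgeR adjusted p = 0.961). HOXA11 had 109, 49.3 and 73.9 CPM against 127, 131 and 67.4 CPM, with a fold change on the log2 scale of -0.50 (SE 0.375, 95% interval -1.37 to 0.36, edgeR adjusted p = 0.993). In both genes the order of the 3 AG-205 libraries was the same, replicate 2 lowest and replicate 1 highest, and in both only DMSO replicate 3 overlapped the AG-205 range. Without AG-205 replicate 1 the log2 values were -1.08 (SE 0.290, edgeR adjusted p = 0.246) and -0.85 (SE 0.329, adjusted p = 0.443). With library quality weights in limma both were called, at -1.35 (adjusted p = 0.0159) and -1.16 (adjusted p = 0.0445). HOXA9, next in the cluster, had a fold change on the log2 scale of -0.04 (SE 0.313, edgeR adjusted p = 0.993), HOXA11-AS -0.60 (SE 0.367, adjusted p = 0.993) and HOXA10-AS 0.28 (SE 0.393, adjusted p = 0.993).

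HAND2 and NR2F2 had the smallest differences among the members in edgeR. HAND2 had 45.8, 55.5 and 44.8 CPM with AG-205, on both sides of the DMSO range of 48.7 to 51.1 CPM (log2 -0.05, SE 0.198, 95% interval -0.50 to 0.41, edgeR adjusted p = 0.993). HAND2-AS1 had 52.7, 33.4 and 45.6 CPM with AG-205 against 35.7, 36.2 and 28.1 CPM with DMSO (log2 0.38, SE 0.253, edgeR adjusted p = 0.993). NR2F2 had 804, 525 and 583 CPM against 659, 732 and 649 CPM (log2 -0.10, SE 0.258, 95% interval -0.70 to 0.49, edgeR adjusted p = 0.993). Without AG-205 replicate 1 the values were -0.02 (adjusted p = 0.984 in edgeR) for HAND2 and -0.32 (SE 0.184, adjusted p = 0.662) for NR2F2. With all 6 libraries, for neither HAND2 nor NR2F2 does the interval reach a log2 difference of 1 in either direction. Over the same libraries the stromal markers summed to between 13921 and 22904 CPM with AG-205 and between 19305 and 28469 CPM with DMSO, and the epithelial markers to between 221 and 388 CPM and between 238 and 344 CPM, and their part in these values was not tested.

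**Figure D3:**
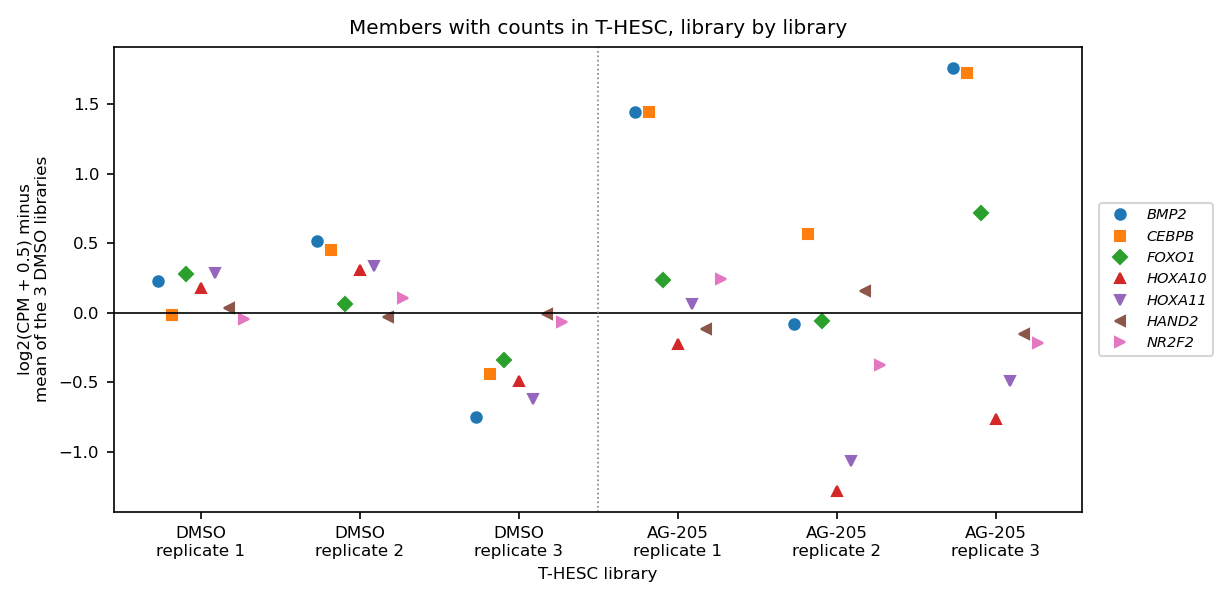
For the 7 members with counts in T-HESC, log2(CPM + 0.5) in each library minus the mean of the 3 DMSO libraries, DMSO libraries left and AG-205 libraries right of the dotted line. BMP2 and CEBPB lie together at 1.45 in AG-205 replicate 1 and at 1.76 and 1.73 in replicate 3. HOXA10 and HOXA11 are lowest in AG-205 replicate 2 at -1.28 and -1.07. Over all libraries shown, HAND2 and NR2F2 go no further from 0 than 0.155 and -0.372, both in AG-205 replicate 2.

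The wider list in T-HESC likewise had 0 of 61 tested genes called by edgeR, with 5 at an unadjusted p under 0.05, against the 5.38% of all genes given above. DESeq2 called 2, BMP4 and DIO2. BMP4, another BMP ligand, had 1.19, 0.826 and 1.61 CPM with AG-205 against 4.89, 6.12 and 3.89 CPM with DMSO, without overlap (log2 -2.05, SE 0.400, edgeR adjusted p = 0.211). DIO2, a deiodinase that activates thyroid hormone, had 3.10, 0.676 and 3.05 CPM against 17.3, 10.6 and 4.59 CPM (log2 -2.27, SE 0.656, edgeR adjusted p = 0.522). DIO2 needed its DMSO libraries to pass the filter, so nothing is read from its difference. CRYAB, a small heat shock protein found in decidual cells, had the smallest p of those with a positive value (log2 0.80, SE 0.213, edgeR adjusted p = 0.454). Without AG-205 replicate 1 these were -2.06 for BMP4, -2.59 for DIO2 and 0.85 for CRYAB on the log2 scale, and edgeR called none (adjusted p = 0.125, 0.265 and 0.155). By group, 9 receptors and co-regulators, 10 other transcription factors, 18 genes of BMP, activin and WNT signalling, 7 of prostaglandin and cAMP signalling, 6 of the IGF axis and 11 decidual products were tested, and their median log2 fold changes lay between -0.18 (IGF axis) and 0.06 (BMP, activin and WNT signalling). The median was -0.07 over the 61 genes and 0.02 over all genes tested. Of the 74 genes, 10 had at most 3 counts in every T-HESC library, among them ZBTB16, a factor induced by progesterone, LEFTY2 and SCARA5, which were picked as examples after their values were seen.

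In HEC-1A 5 members passed the filter and 0 were called by edgeR, against 2.78% of 14122 genes, with 2 at an unadjusted p under 0.05, as 26.2% of all genes tested had, and DESeq2 calling 0. NR2F2 had 50.8, 52.3 and 42.9 CPM with AG-205 and 62.6, 65.8 and 57.6 CPM with DMSO, each AG-205 library below each DMSO library. It was lower by a fold change on the log2 scale of -0.34 (SE 0.102, 95% interval -0.56 to -0.12, edgeR adjusted p = 0.0481), which is within the fold limit. Without that limit, 11.6% of all genes tested in HEC-1A had an edgeR adjusted p under 0.05. HOXA10, at 4, 6 and 7 counts with AG-205 and 13, 14 and 11 with DMSO, also had no overlap (log2 -1.15, SE 0.416, edgeR adjusted p = 0.0963), and was called without AG-205 replicate 3 (adjusted p = 0.0147). It passed the filter only through its DMSO libraries, so nothing is read from its difference. Groups without overlap made up 31.4% of the genes tested in HEC-1A.

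CEBPB, FOXO1 and BMP2 in HEC-1A had libraries that overlapped. CEBPB had 87.7, 97.1 and 96.3 CPM with AG-205 and 101, 101 and 89.3 CPM with DMSO (log2 -0.05, SE 0.0932, 95% interval -0.25 to 0.15, edgeR adjusted p = 0.783). The log2 fold changes of FOXO1 and BMP2 were 0.03 (SE 0.164) and -0.61 (SE 0.410), with edgeR adjusted p = 0.925 and 0.385. In the wider list 43 genes were tested, 1 was called higher, CRYAB (log2 1.22, SE 0.226, edgeR adjusted p = 0.00452), and 1 lower, BMPR1B (-1.08, SE 0.246, adjusted p = 0.0141). The BMPR1B call was lost without AG-205 replicate 2 (adjusted p = 0.0672) and without DMSO replicate 1, 2 or 3 (0.0565, 0.0552 and 0.0556). The BMP-responsive factors ID3 and ID2 were higher within the fold limit (log2 0.73 and 0.55, adjusted p = 0.000974 and 0.00194), and IGFBP3 and FKBP4 lower within it (-0.72 and -0.49, adjusted p = 0.000367 and 0.00858), these 4 being named after their values were seen. An adjusted p under 0.05 without the fold limit was reached by 11.6% of all genes tested in this line. The epithelial markers summed to between 2295 and 2333 CPM with AG-205 and between 1534 and 1694 CPM with DMSO in these libraries, and their part in the result was not tested.

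**Figure D4:**
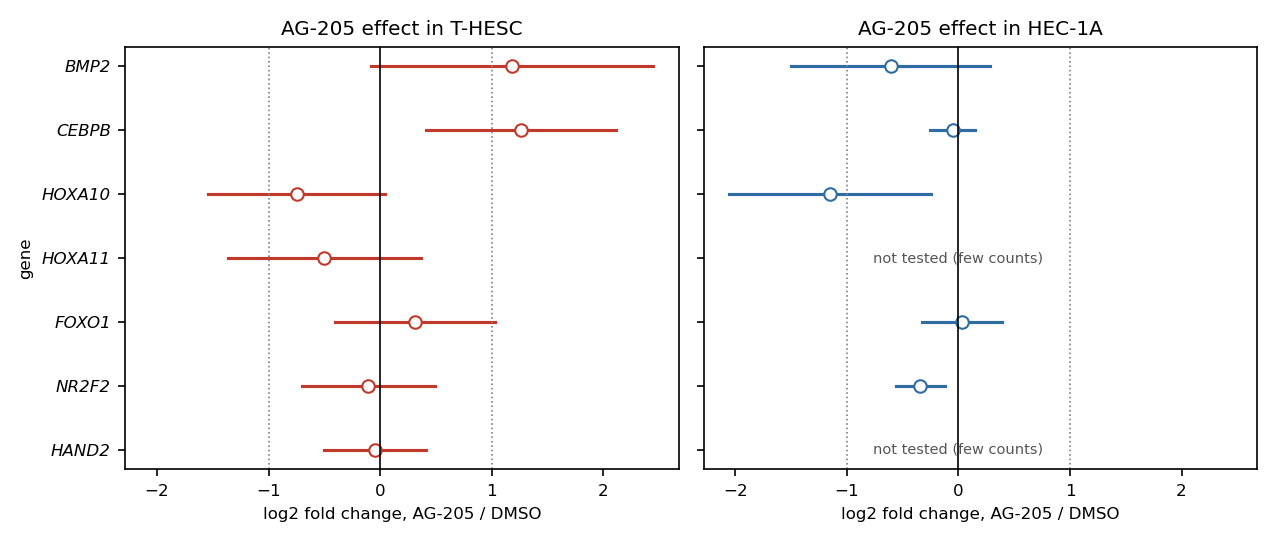
Log2 fold change of AG-205 over DMSO with its 95% interval for the 7 members in T-HESC (left) and the 5 tested in HEC-1A (right); open circles are genes not called, and dotted lines mark the fold limit. CEBPB at 1.27 and BMP2 at 1.19 lie highest in T-HESC, while in HEC-1A CEBPB lies at -0.05 with a narrower interval.

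The AG-205 effects in the 2 lines were compared in 1 fit of all 12 libraries, as T-HESC minus HEC-1A. No member was called, against 0.174% of 16132 genes, with 2 at an unadjusted p under 0.05 in edgeR, as 6.35% of all genes had. DESeq2 called 0 and also had 2 at that p, but its own share over all genes was not taken. HAND2, with at most 1 count in each HEC-1A library, gave no usable difference, its fitted value running from -1.89 to 1.83 as single libraries were left out. The 2 in edgeR were CEBPB, with a difference of 1.33 on the log2 scale (SE 0.388, 95% interval 0.49 to 2.18, edgeR adjusted p = 0.411), and BMP2, with 1.78 (SE 0.789, 95% interval 0.07 to 3.50, adjusted p = 0.758). CEBPB was called with no filter on low counts (adjusted p = 0.0118). NR2F2 had a difference of 0.25 (SE 0.251), so its AG-205 effect was not shown to differ between the lines. HOXA10 had a difference of 0.40 (SE 0.565). Nothing is read from it, since HOXA10 passed the filter in HEC-1A only through its DMSO libraries. In the wider list 1 of 61 genes was called, BMP4, whose effect was lower in T-HESC by a log2 difference of -2.44 (SE 0.426, edgeR adjusted p = 0.0489). That call held without T-HESC AG-205 replicate 1 or 3 (adjusted p = 0.0296 and 0.0300) and was lost with the replicate block (log2 -2.43, adjusted p = 0.401) and without any other single library, at adjusted p from 0.0586 (T-HESC DMSO replicate 3) to 0.213 (HEC-1A AG-205 replicate 2), with log2 differences from -2.58 to -2.23.

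For each member with at least 1 CPM on average in T-HESC, the gene with the most similar profile over the 12 libraries was sought by Pearson's r of log2 CPM. These r are descriptions over libraries that share their 2 cell lines. HAND2 was closest to EDIL3 (r = 0.9997), HOXA10 and HOXA11 both to MARCKS (r = 0.997 and 0.998), and NR2F2 to GRHPR (r = 0.999). BMP2, which differs less between the lines, was closest to IRAK2 (r = 0.989), CEBPB to SLC39A8 (r = 0.961) and FOXO1 to CYP2F2P (r = 0.911). Over the 6 T-HESC libraries alone the r of the same pairs was 0.341 for HAND2, 0.917 for HOXA10, 0.971 for HOXA11, 0.933 for NR2F2, 0.988 for BMP2, 0.957 for CEBPB and 0.925 for FOXO1.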

How the data were processed

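RNA of 3 independent culture experiments per line was selected for polyA and sequenced in read pairs by the authors. Per the labels and methods, reads were trimmed with Trimmomatic 0.38, aligned to GRCh38 with HISAT2 2.1.0 and counted per gene with featureCounts of Subread 2.0.0 on an Ensembl annotation. The authors deposited raw counts, without normalization. Strandedness and treatment of multi-mapping reads are not given in the sources used here, so counts of genes with an antisense partner or paralog carry that uncertainty.

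The counts were analysed in R 4.3.3 with edgeR 4.0.16: filterByExpr, TMM, the quasi-likelihood test and p-values adjusted by Benjamini-Hochberg across the tested genes, per line, between the lines with DMSO, and as a difference of effects over 12 libraries. Calls needed an adjusted p below 0.05 together with a log2 change beyond 1 in either direction. The study used the same thresholds but applied them to DESeq2, which is an alternative here. SE came from the quasi-likelihood F and intervals are 95%. Alternatives used DESeq2 1.42.0, limma 3.58.1 with library quality weights, RLE size factors, no filter, all 12 libraries in 1 fit, a replicate block, no fold limit and each library left out. CPM were scaled by TMM over 12 libraries, and RPKM used exon lengths of GENCODE 44 (GRCh38). The procedure was tested on simulated counts with the same biological coefficient of variation for every gene and no library set apart. That test does not show how the procedure performs on the T-HESC libraries, where 1 library stood apart. P-values measure the spread between culture experiments of 1 line.

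The 10 members and the wider list (75 symbols, 74 matched, SOD2 not) were chosen with earlier results of these data known. Named besides the members are called genes of the wider list, up to 6 per direction, or the 3 with the smallest p where edgeR called none, plus HOXA9, HAND2-AS1, HOXA11-AS and HOXA10-AS. Promoters are the 250 bases before the RefSeq start.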

Additional observations from a re-analysis of the deposited data

Results flagged for a closer look

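BMP4, a secreted ligand of the wider list, differed between the lines in its response to AG-205 by the test of the difference itself. The log2 difference of effects, T-HESC minus HEC-1A, was -2.44 (SE 0.426, edgeR adjusted p = 0.0489). The call was lost with the replicate block (log2 -2.43, adjusted p = 0.401) and in 10 of the 12 fits that left out 1 library (adjusted p from 0.0586 to 0.213), and held without T-HESC AG-205 replicate 1 or 3 (0.0296 and 0.0300). In T-HESC BMP4 had 13, 11 and 19 counts with AG-205 against 65, 74 and 39 with DMSO. In HEC-1A it had 38, 51 and 25 counts against 28, 33 and 24, that is 0.40 on the log2 scale (SE 0.231, edgeR adjusted p = 0.304). The effect in T-HESC alone was not called by edgeR (adjusted p = 0.211), and counts this low limit the precision of the difference. With 3 libraries per group no group was tested for a library far from the others.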

How the results depend on the processing

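The 5 members called between the lines were called in all alternatives, which is no further support for HAND2, HOXA11 and BMP2, given the filter. With AG-205, members called in T-HESC were 0 in edgeR, 1 with no filter on low counts and 1 with all 12 libraries in 1 fit (CEBPB both times), and 2 with library quality weights (HOXA10, HOXA11). In HEC-1A they were 1 with no fold limit (NR2F2), against 11.6% of all genes tested, and 1 with quality weights (HOXA10), against 3.74%. Leaving out 1 library gave 0 to 1 there, against 2.13% to 4.07% of all genes. HOXA10 passed the filter in HEC-1A only through its DMSO libraries, so nothing is read from its calls. The difference of effects gave 1 with no filter (CEBPB), against 0.403% of all genes. Wider-list calls in T-HESC went from 0 to 2 with DESeq2, 2 with no filter, 1 with all 12 libraries and 4 with quality weights. In HEC-1A they went from 2 to 1 with all 12 libraries and to 6 with no fold limit, against the 11.6% of all genes above. Leaving out 1 library gave 1 to 2 in HEC-1A, and in the difference the count went from 1 to 0 to 1. Signs turned with quality weights in T-HESC for BMP2 (-0.0199), FOXO1 (-0.0336) and HAND2 (0.0561), and in the difference for FOXO1 (-0.102), HOXA11 (-0.0008) and NR2F2 (-0.0649). Leaving out 1 library turned signs for HAND2 (-0.171 to 0.0141) and BMPR1B (-0.514 to 0.078) in T-HESC, FOXO1 in HEC-1A (-0.119 to 0.164), HOXA11 (-0.312 to 0.580) and HAND2 (-1.89 to 1.83) in the difference and CEBPB between the lines (-0.0766 to 0.375). The cause was not tested. The replicate block gave 0 members and 0 wider genes in T-HESC and took the wider-list count of the difference from 1 to 0. Deviations of same-numbered libraries correlated at -0.562 to 0.185 in T-HESC and -0.104 to 0.311 in HEC-1A. Whether equal numbers share a culture experiment is not stated, and no pairing was assumed. Levels under 3 counts per library were not detectable.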
